A study of Mus musculus with 6 samples.

Results

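The mouse mitochondrial genome carries 37 genes, and all 37 had values in every library: 13 mRNAs, 22 tRNAs and 2 rRNAs. They were chosen as the genes whose symbol begins with mt- in both deposited expression tables, out of 14667 genes listed in either table. Expression was measured by RNA-seq as FPKM, fragments per kilobase of gene scaled to the mapped fragments of the library, in 6 libraries of NE-4C, a neural stem cell line from the brain of p53-deficient mouse embryos. All 3 lines shared a knockout of H3f3a, a gene for the histone variant H3.3, and each stably expressed an HA-tagged H3.3. H3.3WT cells carried the wild-type tagged protein, and Cbfa2t2_KO cells carried the same protein together with a knockout of Cbfa2t2, a transcriptional corepressor of the ETO family. H3.3K27M cells carried H3.3 with methionine in place of lysine at residue 27, the change found in diffuse midline gliomas. Each line had 2 libraries, the second marked as a repeat, and the labels say neither whether these were separate cultures nor whether a line is a single clone. The p-values therefore measure only the spread between these libraries, which may be technical.

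Mitochondrial DNA is copied into long RNAs that run along nearly the whole of each strand, so that one precursor holds many genes. The tRNA genes sit between the mRNA and rRNA genes and are cut out by a mitochondrial RNase P at their 5′ ends and by Elac2 at their 3′ ends, which also frees the mRNAs. Most of the mRNAs then receive short poly(A) tails, while tRNAs receive only a CCA end. The libraries were made from RNA caught on oligo(dT) beads, which holds polyadenylated RNA, so that finished tRNAs are captured poorly, and a fragment assigned to a tRNA gene may also come from an uncut precursor. The mRNAs encode subunits of complexes I, III, IV and V of oxidative phosphorylation, and the tRNAs and rRNAs serve the mitochondrial ribosome that translates them.

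The 37 genes lie close together on chromosome M, and the sequences of 8 tRNA genes are shown, in 2 sets. They come from the GENCODE M21 transcripts on GRCm38, written 5′ to 3′ on the strand of the gene, and the capitals mark the anticodon. The first 4 are shown for the size of their falls from H3.3WT to Cbfa2t2_KO. The methionine tRNA gene mt-Tm (chrM:3845-3913, forward strand) lies 2 bases from mt-Tq and touches the start of mt-Nd2. The tryptophan tRNA gene mt-Tw (chrM:4950-5016, forward strand) overlaps the end of mt-Nd2 by 2 bases. The serine tRNA gene mt-Ts1 (chrM:6870-6938, reverse strand) overlaps the end of mt-Co1, which is on the other strand, by 3 bases. The aspartate tRNA gene mt-Td (chrM:6942-7011, forward strand) lies 3 bases after mt-Ts1 and 1 base before mt-Co2.
mt-Tm: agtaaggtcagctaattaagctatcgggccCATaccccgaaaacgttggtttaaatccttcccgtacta
mt-Tw: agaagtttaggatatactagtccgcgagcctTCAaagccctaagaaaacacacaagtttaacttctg
mt-Ts1: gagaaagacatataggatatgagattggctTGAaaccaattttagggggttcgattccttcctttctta
mt-Td: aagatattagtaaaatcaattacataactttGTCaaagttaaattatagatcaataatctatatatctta

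The other 4 form one block on the reverse strand between mt-Tw and mt-Co1, and they are shown because genes only a few bases apart moved differently. They are the alanine tRNA gene mt-Ta (chrM:5018-5086), the asparagine tRNA gene mt-Tn (chrM:5089-5159), the cysteine tRNA gene mt-Tc (chrM:5192-5257) and the tyrosine tRNA gene mt-Ty (chrM:5260-5326). mt-Ta lies 1 base from mt-Tw, and 32 bases separate mt-Tn from mt-Tc.
mt-Ta: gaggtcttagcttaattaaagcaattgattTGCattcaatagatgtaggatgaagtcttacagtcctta
mt-Tn: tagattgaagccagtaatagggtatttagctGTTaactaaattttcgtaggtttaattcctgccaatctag
mt-Tc: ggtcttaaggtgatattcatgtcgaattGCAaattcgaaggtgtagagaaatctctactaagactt
mt-Ty: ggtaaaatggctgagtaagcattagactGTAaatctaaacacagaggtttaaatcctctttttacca

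Across the 22 tRNA genes the length ran from 59 to 75 bases, against 204 to 1824 bases in the mRNA genes. GC content ran from 17.1% in mt-Td to 44.9% in mt-Tm among the tRNA genes, and from 31.9% to 41.1% among the mRNAs. Of the 22 tRNA genes, 6 overlap a neighbour and 10 touch one with no base between them. A value for a gene this short is less certain than one for an mRNA gene, because a fragment that crosses a border belongs to both genes. The fragment length is not known here. No label or header says whether the counting used strand, so RNA of a gene and RNA antisense to it cannot be told apart.

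The FPKM values of a library summed to between 363586 and 419389 over its table, and the depth in reads is unknown. The mitochondrial genes took 1.06% and 1.22% of that sum in the H3.3WT libraries, 1.5% and 1.02% in Cbfa2t2_KO, and 1.75% and 1.6% in H3.3K27M. Cbfa2t2 itself was at 1.38 and 1.35 FPKM in H3.3WT and at 1.02 and 0.769 in Cbfa2t2_KO. This difference did not pass the test (log2 change -0.32 ± 0.16 (SE), limma adjusted p = 0.153). A small lesion need not lower the transcript, but the labels do not describe the lesion, and its effect was not tested. H3f3a, knocked out in all lines, was listed at 131 and 181 FPKM in H3.3WT, 82.1 and 66.3 in Cbfa2t2_KO, and 77.3 and 66.8 in H3.3K27M (log2 changes -1.05, adjusted p = 0.005, and -1.09, adjusted p = 0.0071). The tables do not separate its own locus from an introduced copy, so these values check neither label. Of 12 markers of neural stem cells, 10 had values, summing to 122 and 134 FPKM in H3.3WT, 104 and 89.4 in Cbfa2t2_KO, and 119 and 124 in H3.3K27M, while Sox1 and Fabp7 were not among the listed genes. Behind these sums single markers differed: of 9 tested, 2 rose and 4 fell in each line, among them Sox2 in Cbfa2t2_KO (-1.51, adjusted p = 0.001), Nes in H3.3K27M (-1.20, adjusted p = 0.003) and Vim in H3.3K27M (1.68, adjusted p = 0.0013). Neuron markers, 5 of 8 listed, summed to 85.6 and 85.7 FPKM in H3.3WT, 140 and 156 in Cbfa2t2_KO and 82.2 and 86.5 in H3.3K27M, mostly from the tubulin gene Tubb3. Of 5 tested in Cbfa2t2_KO, Tubb3 (0.93, adjusted p = 0.0022) and Syp (0.68, adjusted p = 0.016) rose and Nefl fell (-0.77, adjusted p = 0.012). Of 4 tested in H3.3K27M, 0 rose, and Rbfox3 (-0.74, adjusted p = 0.015) and Nefl (-0.59, adjusted p = 0.047) fell. The part of these marker differences in the mitochondrial ones was not tested. Of the astrocyte, oligodendrocyte, microglia and endothelial markers, 2 of 6, 1 of 6, 1 of 6 and 2 of 5 were listed, with sums of at most 13.9 FPKM in any library. In bulk RNA, fewer cells of a type and less RNA per cell cannot be told apart.

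The mRNAs of H3.3K27M cells stood above those of H3.3WT cells, while those of Cbfa2t2_KO cells did not separate from them. Calls are those of limma on log2(FPKM + 1), with Benjamini-Hochberg adjustment over all tested genes and a threshold of 0.05. In H3.3K27M 9 of 13 mRNAs rose and none fell, with a median log2 change of 0.73, beside a median of -0.12 over all 11623 genes tested. Of those genes 26.2% were called in either direction, 8.42% higher and 17.8% lower. In Cbfa2t2_KO 0 of 13 mRNAs were called by limma, and 0 had an unadjusted p under 0.05, with a median of 0.07 and a range from -0.24 to 0.32. There the median over all 11626 genes tested was -0.11, and 34.6% were called, 13.1% higher and 21.5% lower. The Cbfa2t2_KO and H3.3WT libraries overlapped for 13 of 13 mRNAs, while they did not overlap for 70.4% of all tested genes. Both comparisons use the same 2 H3.3WT libraries and are not independent of each other. The first Cbfa2t2_KO library exceeded the second in 13 of 13 mRNAs, and the second H3.3WT library exceeded the first in 13 of 13, so the spread within these lines runs along the whole class.

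**Figure D1:**
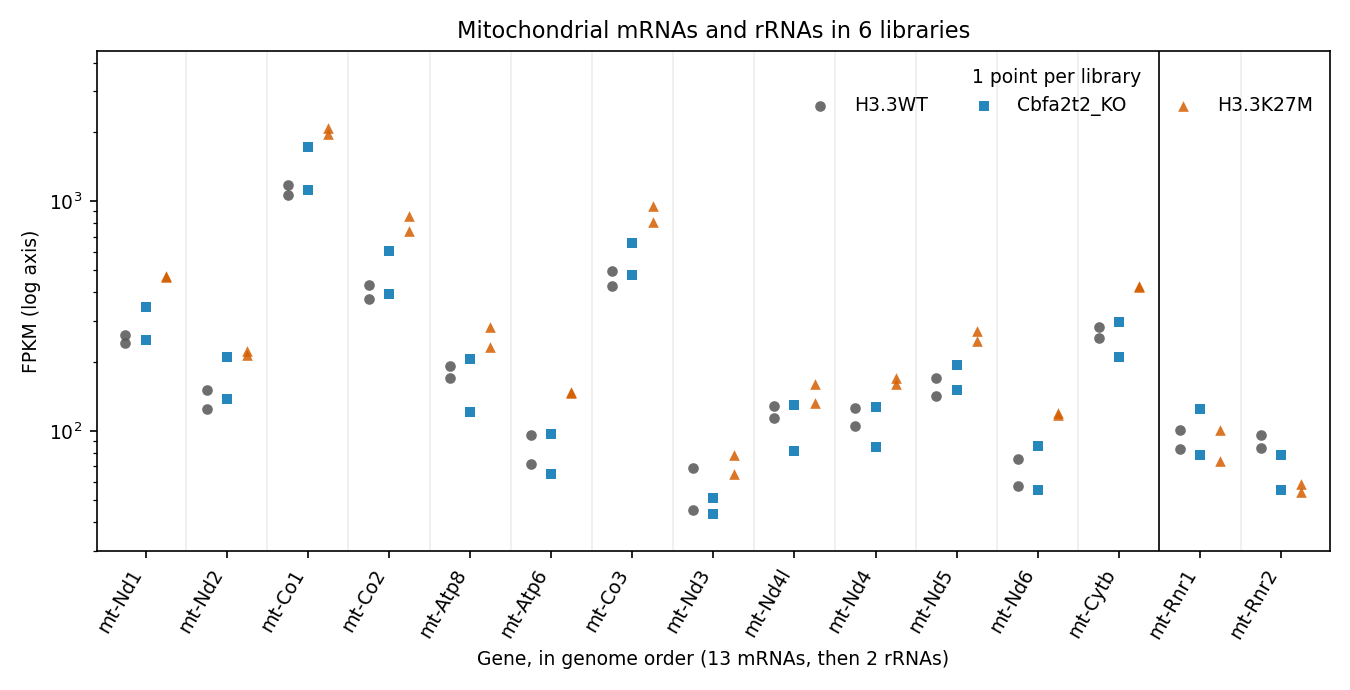
FPKM (log axis) of the 13 mitochondrial mRNAs and, right of the line, the 2 rRNAs in genome order, with 1 point per library: grey circles H3.3WT, blue squares Cbfa2t2_KO, orange triangles H3.3K27M. The orange points lie above both grey points for 12 of 13 mRNAs, against 25.1% of all tested genes, the exception being mt-Nd3, and below both for mt-Rnr2.

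Complex I, which takes electrons from NADH, has 7 subunits encoded here, and 4 of them rose in H3.3K27M: mt-Nd1, mt-Nd2, mt-Nd5 and mt-Nd6. The mt-Nd1 mRNA was at 240 and 261 FPKM in H3.3WT, 346 and 248 in Cbfa2t2_KO, and 465 and 473 in H3.3K27M. Both H3.3K27M libraries exceeded all 4 others, and the Cbfa2t2_KO libraries straddled those of H3.3WT. The log2 change in H3.3K27M was 0.90 ± 0.18 (SE, 2 libraries per line; limma adjusted p = 0.0091). The mt-Nd2 mRNA was at 124 and 150 FPKM in H3.3WT, 209 and 137 in Cbfa2t2_KO, and 222 and 213 in H3.3K27M (log2 change 0.67 ± 0.18, adjusted p = 0.027). Here the first Cbfa2t2_KO library came close to the H3.3K27M pair. The mt-Nd5 mRNA was at 142 and 169 FPKM in H3.3WT, 194 and 150 in Cbfa2t2_KO, and 271 and 245 in H3.3K27M (log2 change 0.73 ± 0.18, adjusted p = 0.021). The only mRNA on the reverse strand, mt-Nd6, was at 57.5 and 75.5 FPKM in H3.3WT, 86.0 and 55.5 in Cbfa2t2_KO, and 119 and 117 in H3.3K27M (log2 change 0.83 ± 0.18, adjusted p = 0.014). As for the forward-strand mRNAs that rose, both H3.3K27M libraries were highest. The other 3 subunits did not pass: mt-Nd3 had a log2 change of 0.35 (adjusted p = 0.266), mt-Nd4l 0.26 (adjusted p = 0.302) and mt-Nd4 0.51 (adjusted p = 0.062). Under median-of-ratios scaling mt-Nd4 passed (0.66, adjusted p = 0.044), and under quantile normalization mt-Nd2 did not (0.54, adjusted p = 0.051). These 3 genes lie next to each other along the genome, apart from mt-Tr between the first and the second.

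Complex IV, the cytochrome c oxidase, takes its catalytic core from mt-Co1, mt-Co2 and mt-Co3, and all 3 rose in H3.3K27M. The mt-Co1 mRNA had the highest FPKM of the 37 genes in every library, at 1058 and 1172 in H3.3WT, 1719 and 1119 in Cbfa2t2_KO, and 2074 and 1959 in H3.3K27M. The H3.3K27M pair was highest, and the first Cbfa2t2_KO library lay nearer to it than to H3.3WT. The log2 change in H3.3K27M was 0.86 ± 0.23 (SE; limma adjusted p = 0.026). The mt-Co2 mRNA was at 374 and 432 FPKM in H3.3WT, 605 and 394 in Cbfa2t2_KO, and 737 and 862 in H3.3K27M (log2 change 0.99 ± 0.20, adjusted p = 0.011), the largest log2 change among the 13 mRNAs. The mt-Co3 mRNA was at 427 and 497 FPKM in H3.3WT, 659 and 476 in Cbfa2t2_KO, and 813 and 949 in H3.3K27M (log2 change 0.93 ± 0.21, adjusted p = 0.014). For both, the H3.3K27M libraries lay above the other 4.

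Cytochrome b, the one subunit of complex III encoded here, and 1 of the 2 ATP synthase subunits also rose in H3.3K27M. The mt-Cytb mRNA was at 253 and 282 FPKM in H3.3WT, 298 and 210 in Cbfa2t2_KO, and 425 and 421 in H3.3K27M. The H3.3K27M libraries lay apart from the other 4, which overlapped, and the log2 change was 0.66 ± 0.18 (SE; limma adjusted p = 0.03). Under quantile normalization this change was 0.37 with an adjusted p of 0.113. Of the ATP synthase subunits, mt-Atp6 was at 71.6 and 95.8 FPKM in H3.3WT, 97.3 and 65.2 in Cbfa2t2_KO, and 147 and 146 in H3.3K27M (log2 change 0.82 ± 0.19, adjusted p = 0.016). The H3.3K27M libraries again exceeded all others. Its overlapping neighbour mt-Atp8, a short subunit read from the same RNA, had a log2 change of 0.50 that did not pass (adjusted p = 0.08).

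These 9 calls rest on both H3.3WT libraries. Without H3.3WT replicate 1 the count of mRNAs that rose in H3.3K27M was 0, without replicate 2 it was 2, and without the second H3.3K27M library it was 5, in fits that assume the lone library to vary like the other line. The table as a whole moved in the same fits, from 3049 calls to 1206, 1007 and 1589.

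The large rRNA was lower in H3.3K27M, where the mRNAs were higher, and the small rRNA was not called in either line. The small-subunit rRNA mt-Rnr1 was at 83.2 and 100 FPKM in H3.3WT, 124 and 78.5 in Cbfa2t2_KO, and 74.3 and 100 in H3.3K27M. The lines overlapped, and neither change passed (log2 change 0.11, limma adjusted p = 0.72, in Cbfa2t2_KO and -0.08, adjusted p = 0.792, in H3.3K27M). The large-subunit rRNA mt-Rnr2 was at 84.2 and 96.1 FPKM in H3.3WT, 78.8 and 55.1 in Cbfa2t2_KO, and 54.4 and 58.6 in H3.3K27M. Both libraries of each other line lay below H3.3WT. The fall was called in H3.3K27M (log2 change -0.66 ± 0.17 (SE), adjusted p = 0.021) and not in Cbfa2t2_KO (-0.44 ± 0.18, adjusted p = 0.098). The H3.3K27M call was lost with median-of-ratios scaling, at -0.51 (adjusted p = 0.077), and when H3.3WT replicate 1, H3.3WT replicate 2 or the first H3.3K27M library was left out (adjusted p = 0.079, 0.163 and 0.051). In Cbfa2t2_KO a call appeared when replicate 1 of that line was left out (-0.70, adjusted p = 0.035).

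The mt-Rnr2 and mt-Nd1 genes are read from one precursor, with only mt-Tl1 between them. Their ratio within a library, like that of any 2 genes, does not depend on the scaling of libraries. The FPKM of mt-Nd1 was 2.85 and 2.71 times that of mt-Rnr2 in H3.3WT, 4.40 and 4.50 times in Cbfa2t2_KO, and 8.55 and 8.07 times in H3.3K27M. The lines did not overlap, and pairs within a line were close. The ratio of mt-Rnr1 to mt-Rnr2 was 0.988 and 1.04 in H3.3WT, 1.57 and 1.42 in Cbfa2t2_KO, and 1.36 and 1.71 in H3.3K27M, with both other lines above H3.3WT. With 2 libraries per line, the smallest 2-sided p that an exact permutation test of such a ratio can give is 0.333, so these ratios stand without a test.

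The tRNA genes changed in both directions, with more calls in Cbfa2t2_KO than in H3.3K27M. In Cbfa2t2_KO 9 of 22 fell and 7 rose, against 21.5% and 13.1% of all tested genes, and the other 6 were not called. In H3.3K27M 8 of 22 fell and 1 rose, against 17.8% and 8.42%. The median log2 change was -0.34 in both comparisons, while the members ranged from -4.19 to 1.51 in Cbfa2t2_KO and from -3.37 to 0.69 in H3.3K27M. Both H3.3WT libraries lay above the other 4 libraries for 9 of 22 tRNA genes, against 30.1% of the 11601 genes tested over all 6 libraries: mt-Tf, mt-Tv, mt-Tq, mt-Tm, mt-Tw, mt-Ts1, mt-Td, mt-Tr and mt-Te. Each line taken alone, both Cbfa2t2_KO libraries lay above both of H3.3WT for 7 tRNA genes and below for 10, against 28.5% and 42% of all tested genes. Both H3.3K27M libraries lay above for 5 and below for 10, against 25.1% and 41.3%, with 66.3% in either direction. On the scale of log2(FPKM + 1) changes of genes near or below 1 FPKM are understated. All 37 genes passed the filter on a mean of 1 FPKM, but 6 had a mean under 1 FPKM in Cbfa2t2_KO and 5 in H3.3K27M. In Cbfa2t2_KO these were mt-Tf, mt-Tv, mt-Tq, mt-Ts1, mt-Td and mt-Tk, all but mt-Tk called lower. In H3.3K27M they were mt-Tf, mt-Tv, mt-Tq, mt-Ts1 and mt-Tr, all called lower. They passed the filter through H3.3WT, which favours a fall, so the counts of falls are not independent of the filter. With a mean of at least 5 FPKM, 4 tRNA genes fell in Cbfa2t2_KO and 3 in H3.3K27M.

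**Figure D2:**
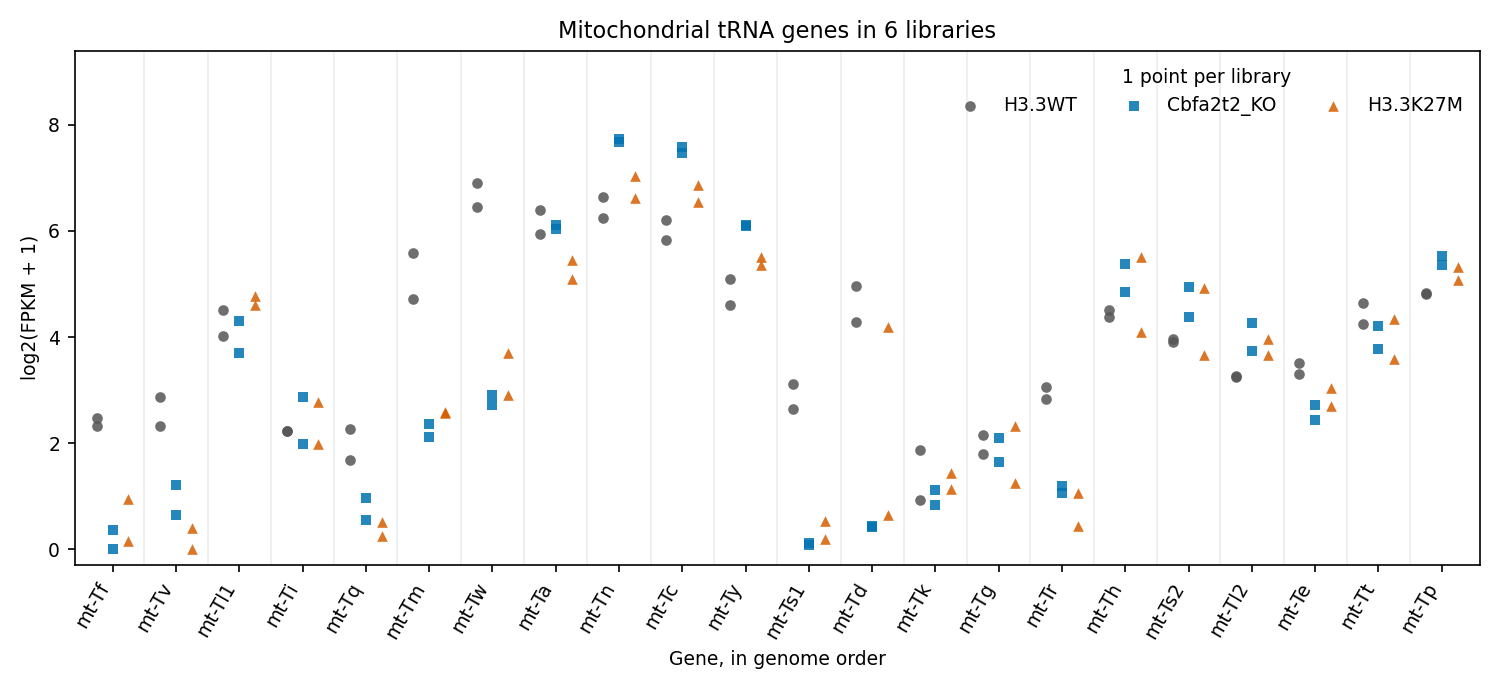
log2(FPKM + 1) of the 22 mitochondrial tRNA genes in genome order, with 1 point per library: grey circles H3.3WT, blue squares Cbfa2t2_KO, orange triangles H3.3K27M. For 9 of 22 genes both grey points lie above all others, against 30.1% of the genes tested over all 6 libraries. For mt-Tn, mt-Tc and mt-Ty the blue points are highest. The mt-Td gene has 1 orange point near the grey pair and 1 near the blue pair.

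On the log2(FPKM + 1) scale the 4 largest falls in Cbfa2t2_KO were mt-Td, mt-Tw, mt-Tm and mt-Ts1, whose sequences are given above. The order depends on the pseudocount: with 0.1 in place of 1 the changes were -5.74 for mt-Td, -5.21 for mt-Ts1, -4.48 for mt-Tf, -4.05 for mt-Tw and -3.17 for mt-Tm. The mt-Tw gene, tryptophan, was at 86.4 and 119 FPKM in H3.3WT, 6.50 and 5.55 in Cbfa2t2_KO, and 6.52 and 12.0 in H3.3K27M. Both other lines stood far below H3.3WT with no overlap. The log2 change was -3.87 ± 0.18 (SE; limma adjusted p = 9.9e-05) in Cbfa2t2_KO and -3.37 ± 0.27 (adjusted p = 0.00078) in H3.3K27M. The mt-Tm gene, methionine, was at 25.3 and 47.0 FPKM in H3.3WT, 4.16 and 3.34 in Cbfa2t2_KO, and 4.95 and 4.99 in H3.3K27M. Again the 4 libraries of the other lines lay together below the H3.3WT pair, with log2 changes of -2.91 ± 0.27 (adjusted p = 0.00064) and -2.57 ± 0.27 (adjusted p = 0.0013). The mt-Ts1 gene, serine, was at 5.26 and 7.64 FPKM in H3.3WT, 0.0601 and 0.088 in Cbfa2t2_KO, and 0.436 and 0.137 in H3.3K27M. It was near the bottom of the scale in both other lines (log2 change -2.77 ± 0.20, adjusted p = 0.0003, and -2.52 ± 0.22, adjusted p = 0.001).

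The mt-Td gene, aspartate, separated the H3.3K27M libraries from each other. It was at 18.4 and 30.3 FPKM in H3.3WT, 0.355 and 0.335 in Cbfa2t2_KO, and 17.2 and 0.565 in H3.3K27M. The first H3.3K27M library thus lay close to H3.3WT and the second close to Cbfa2t2_KO. The Cbfa2t2_KO change of -4.19 ± 0.24 (SE; limma adjusted p = 0.00012) was the largest of the 37 genes, and the H3.3K27M change of -2.21 ± 0.89 did not pass (adjusted p = 0.1). Without the first H3.3K27M library it was -3.98 (adjusted p = 0.0073).

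A further 5 genes fell in Cbfa2t2_KO from levels of at most 10.3 FPKM in H3.3WT. The mt-Tf gene, phenylalanine, was at 4.00 and 4.53 FPKM in H3.3WT, at 0.281 and listed at 0 in Cbfa2t2_KO, and at 0.921 and 0.117 in H3.3K27M. Its neighbour mt-Tv, valine, was at 4.01 and 6.29 FPKM in H3.3WT, 1.31 and 0.554 in Cbfa2t2_KO, and listed at 0 and at 0.324 in H3.3K27M. Both flank mt-Rnr1, which was not called. The mt-Tf change was -2.22 ± 0.18 (SE; limma adjusted p = 0.00042) in Cbfa2t2_KO and -1.84 ± 0.26 (adjusted p = 0.0028) in H3.3K27M, and that of mt-Tv was -1.67 ± 0.26 (adjusted p = 0.0027) and -2.39 ± 0.24 (adjusted p = 0.0012).

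The mt-Tr gene, arginine, was at 7.29 and 6.08 FPKM in H3.3WT, 1.07 and 1.27 in Cbfa2t2_KO, and 0.356 and 1.09 in H3.3K27M (log2 changes -1.82, limma adjusted p = 0.00083, and -2.19, adjusted p = 0.0014). The mt-Tq gene, glutamine, was at 2.22 and 3.82 FPKM in H3.3WT, 0.951 and 0.454 in Cbfa2t2_KO, and 0.187 and 0.419 in H3.3K27M (log2 changes -1.23, adjusted p = 0.0072, and -1.60, adjusted p = 0.0029). In both genes the H3.3WT pair stood alone at the top. The mt-Te gene, glutamate, was at 8.92 and 10.3 FPKM in H3.3WT, 5.62 and 4.43 in Cbfa2t2_KO, and 7.25 and 5.51 in H3.3K27M. It fell in Cbfa2t2_KO (-0.82, adjusted p = 0.012) and had a change of -0.53 in H3.3K27M that did not pass (adjusted p = 0.081). The mt-Te call was lost when Cbfa2t2_KO replicate 2 or H3.3WT replicate 2 was left out (adjusted p = 0.074 and 0.064), and that of mt-Tq in Cbfa2t2_KO when its replicate 2 was left out (adjusted p = 0.061).

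In the block of 4 reverse-strand genes, 3 rose in Cbfa2t2_KO beside mt-Ta, which did not. The mt-Tn gene, asparagine, was at 74.4 and 98.9 FPKM in H3.3WT, 205 and 212 in Cbfa2t2_KO, and 97.5 and 130 in H3.3K27M. The mt-Tc gene, cysteine, was at 56.2 and 72.6 FPKM in H3.3WT, 177 and 192 in Cbfa2t2_KO, and 92.7 and 116 in H3.3K27M. The mt-Ty gene, tyrosine, was at 23.5 and 33.4 FPKM in H3.3WT, 68.2 and 67.7 in Cbfa2t2_KO, and 39.8 and 44.5 in H3.3K27M. In all 3 the Cbfa2t2_KO libraries were highest, with no overlap with either line. The log2 changes in Cbfa2t2_KO were 1.27 ± 0.16 (SE; limma adjusted p = 0.0016) for mt-Tn, 1.51 ± 0.16 (adjusted p = 0.0009) for mt-Tc and 1.25 ± 0.18 (adjusted p = 0.0021) for mt-Ty. In H3.3K27M mt-Tc alone of the 22 tRNA genes was called higher (0.69 ± 0.20, adjusted p = 0.034), and mt-Tn (0.39, adjusted p = 0.203) and mt-Ty (0.57, adjusted p = 0.066) were not. The mt-Tc call in H3.3K27M was lost when H3.3WT replicate 1, H3.3WT replicate 2 or the second H3.3K27M library was left out (adjusted p = 0.23, 0.072 and 0.136). The mt-Ty change in H3.3K27M passed in the fit of all 6 libraries (adjusted p = 0.043), with median-of-ratios scaling (adjusted p = 0.037), with quantile normalization (adjusted p = 0.036) and with robust eBayes (adjusted p = 0.044).

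The mt-Ta gene, alanine, was at 60.6 and 83.7 FPKM in H3.3WT, 68.6 and 64.5 in Cbfa2t2_KO, and 32.9 and 42.8 in H3.3K27M. Only the H3.3K27M libraries stood apart, below the other 4. The log2 change there was -0.91 ± 0.21 (SE; limma adjusted p = 0.016), against -0.10 (adjusted p = 0.685) in Cbfa2t2_KO. The H3.3K27M call was lost when H3.3WT replicate 2 or the first H3.3K27M library was left out (adjusted p = 0.132 and 0.063).

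Ratios within a library set these neighbours side by side without the scaling of libraries. The FPKM of mt-Tw was 1.43 and 1.42 times that of mt-Ta in H3.3WT, 0.0948 and 0.0860 times in Cbfa2t2_KO, and 0.198 and 0.281 times in H3.3K27M. The ratio of mt-Tc to mt-Ta was 0.927 and 0.867 in H3.3WT, 2.59 and 2.97 in Cbfa2t2_KO, and 2.82 and 2.70 in H3.3K27M. The order of the 2 genes thus turned over between H3.3WT and the other lines. That of mt-Tn to mt-Ta was 1.23 and 1.18 in H3.3WT, 2.98 and 3.29 in Cbfa2t2_KO, and 2.96 and 3.03 in H3.3K27M. By the ratios of mt-Tc and mt-Tn to mt-Ta, unlike that of mt-Tw, Cbfa2t2_KO and H3.3K27M lay close to each other, although mt-Tn, mt-Tc and mt-Ta all had lower FPKM in H3.3K27M than in Cbfa2t2_KO. The FPKM of mt-Tw was 0.698 and 0.792 times that of the adjoining mt-Nd2 mRNA in H3.3WT, 0.0312 and 0.0403 times in Cbfa2t2_KO, and 0.0294 and 0.0563 times in H3.3K27M.

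**Figure D3:**
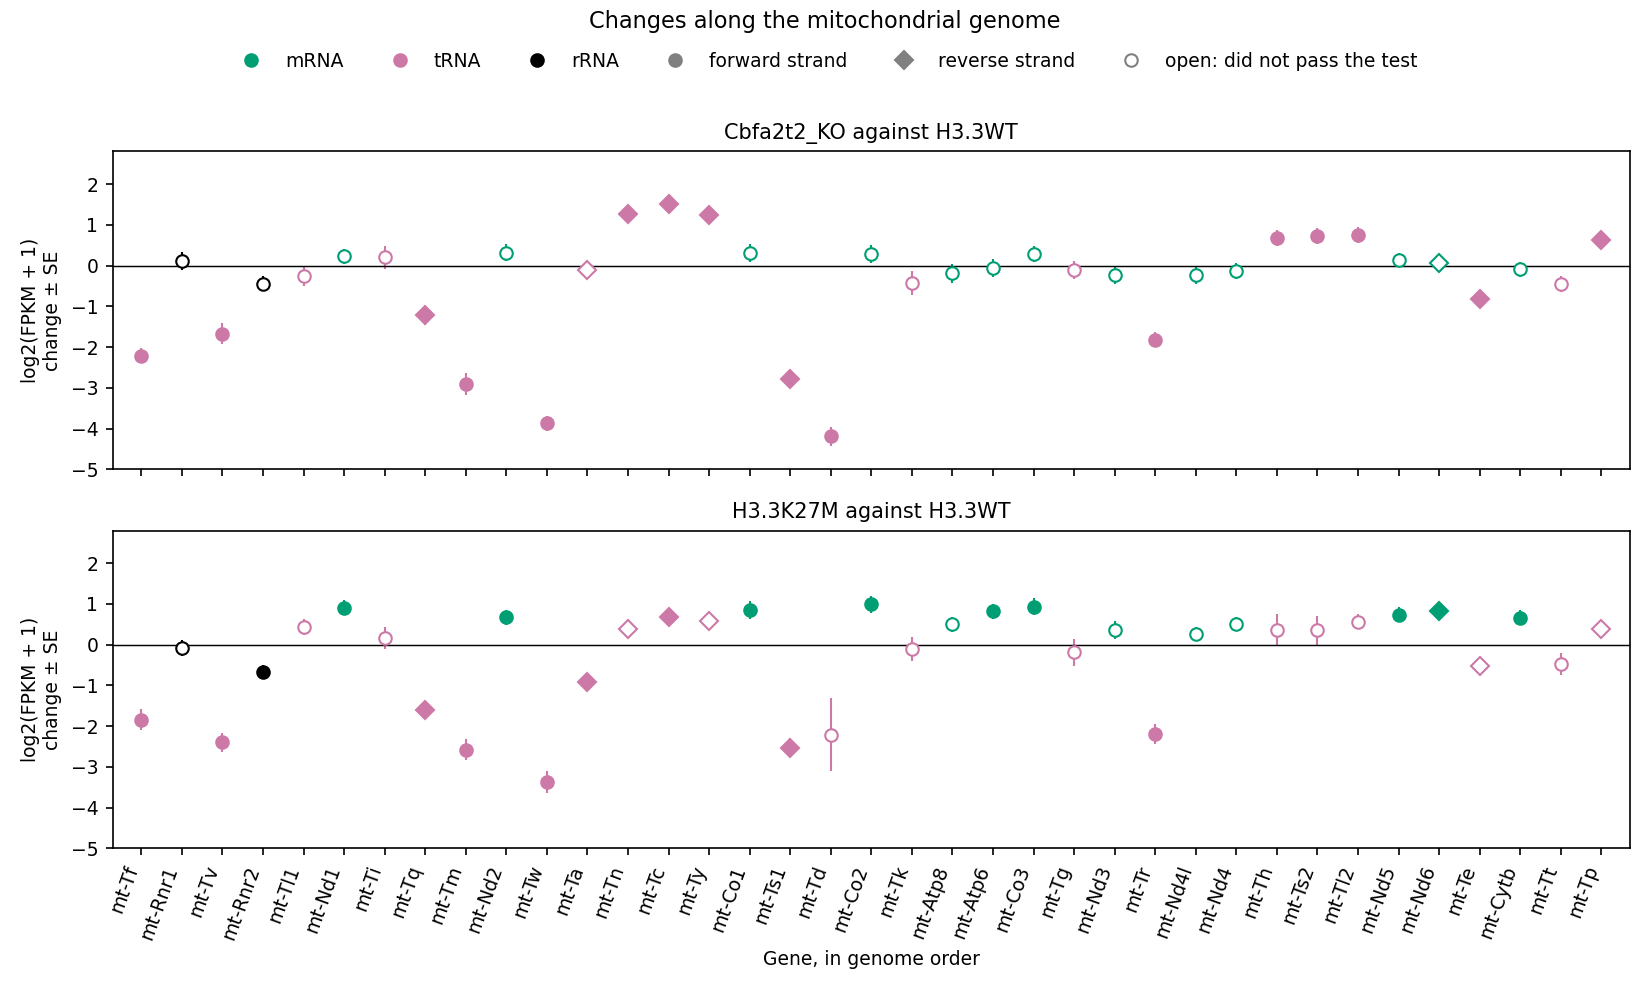
log2(FPKM + 1) change ± SE against H3.3WT of the 37 genes in genome order, in Cbfa2t2_KO above and H3.3K27M below; green mRNA, pink tRNA, black rRNA, circles forward strand, diamonds reverse strand, filled where the test passed. Some tRNA genes that fell, such as mt-Tw (-3.87 and -3.37) beside mt-Nd2, adjoin mRNAs that rose or were not called. In Cbfa2t2_KO mt-Tn, mt-Tc and mt-Ty rise next to mt-Ta and mt-Tw.

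A second run of neighbours, the histidine, serine and leucine tRNA genes mt-Th, mt-Ts2 and mt-Tl2 between mt-Nd4 and mt-Nd5, rose in Cbfa2t2_KO by less. The mt-Th gene was at 21.6 and 19.9 FPKM in H3.3WT, 40.8 and 27.8 in Cbfa2t2_KO, and 16.1 and 44.6 in H3.3K27M. The mt-Ts2 gene was at 14.6 and 14.1 FPKM in H3.3WT, 29.9 and 19.7 in Cbfa2t2_KO, and 11.6 and 29.2 in H3.3K27M. The mt-Tl2 gene was at 8.52 and 8.59 FPKM in H3.3WT, 18.2 and 12.4 in Cbfa2t2_KO, and 11.7 and 14.6 in H3.3K27M. The H3.3K27M libraries of the first 2 genes lay on either side of H3.3WT. The log2 changes in Cbfa2t2_KO were 0.67 ± 0.19 (SE; limma adjusted p = 0.029), 0.72 ± 0.20 (adjusted p = 0.028) and 0.75 ± 0.20 (adjusted p = 0.023). All 3 calls were lost on leaving out Cbfa2t2_KO replicate 1 (adjusted p = 0.145, 0.132 and 0.112), H3.3WT replicate 1 (0.051, 0.058 and 0.057) or H3.3WT replicate 2 (0.105, 0.088 and 0.069). Those of mt-Th and mt-Ts2 were also lost in a fit of all 6 libraries (adjusted p = 0.207 and 0.15) and when libraries were scaled to the sum outside the mitochondrial genes (adjusted p = 0.059 and 0.055). In H3.3K27M none of the 3 was called, and on leaving out its first library the log2 changes were 1.07, 0.98 and 0.71. With both libraries the mt-Tl2 change there was 0.56 (limma adjusted p = 0.056). It passed with a mean of at least 5 FPKM (adjusted p = 0.048), with median-of-ratios scaling (0.033) and with quantile normalization (0.028). With robust eBayes it was just under the threshold (0.05).

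The proline tRNA gene mt-Tp, the last of the 37 along the genome, was at 27.6 and 26.9 FPKM in H3.3WT, 45.1 and 40.1 in Cbfa2t2_KO, and 32.8 and 39.1 in H3.3K27M. Both other lines lay above H3.3WT. The change passed in Cbfa2t2_KO (0.62 ± 0.14 (SE), limma adjusted p = 0.012) and not in H3.3K27M (0.38, adjusted p = 0.127), except there with quantile normalization (0.53, adjusted p = 0.046). Without Cbfa2t2_KO replicate 1 the first of these was 0.54 with an adjusted p of 0.066. The 5 tRNA genes with no call in either comparison were mt-Tl1, mt-Ti, mt-Tk, mt-Tg and mt-Tt, for leucine, isoleucine, lysine, glycine and threonine. Their log2 changes ran from -0.46 to 0.20 in Cbfa2t2_KO and from -0.48 to 0.43 in H3.3K27M. Of these, mt-Tk passed in Cbfa2t2_KO when H3.3WT replicate 1 was left out (-0.91, adjusted p = 0.025).

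The tRNA genes that rose and those that fell lay on both strands and overlapped in base composition. Of 14 tRNA genes on the forward strand, 3 rose and 6 fell in Cbfa2t2_KO, and of 8 on the reverse strand 4 rose and 3 fell. In H3.3K27M the corresponding counts were 0 and 5, and 1 and 3. The GC content of the tRNA genes that fell in Cbfa2t2_KO ran from 17.1% to 44.9% and that of the genes that rose from 31.0% to 44.8%, with medians of 36.6% and 33.8%.

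Because the genes moved in opposite directions, the level of the class depends on how it is summed. The median FPKM over the 22 tRNA genes was 14.9 and 17.0 in H3.3WT, 6.38 and 4.99 in Cbfa2t2_KO, and 9.16 and 8.94 in H3.3K27M, lower in both other lines. Their summed FPKM was 489 and 648 in H3.3WT, 720 and 683 in Cbfa2t2_KO, and 416 and 539 in H3.3K27M. By the sum, Cbfa2t2_KO was highest, since mt-Tn and mt-Tc made up much of it. The log2 change of the class in Cbfa2t2_KO was -1.34 by the median and 0.32 by the sum, and in H3.3K27M -0.79 and -0.25. For the mRNAs the summed FPKM was 3181 and 3649 in H3.3WT, 4727 and 3187 in Cbfa2t2_KO, and 5941 and 5998 in H3.3K27M, and for the rRNAs 167 and 196, 203 and 134, and 129 and 159.

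Compared directly, in a fit of all 6 libraries over the genes that both tables hold, the H3.3K27M mRNAs exceeded those of Cbfa2t2_KO in all libraries, but few passed. Both H3.3K27M libraries lay above both of Cbfa2t2_KO for 13 of 13 mRNAs, against 26.7% of the 11601 genes tested, with 31.5% below and 58.2% apart in either direction. Of those genes 7.8% were called, 3.12% higher and 4.68% lower. The median log2 difference over the mRNAs was 0.65, against -0.02 over all genes tested. Only mt-Atp6 (0.87 ± 0.21 (SE), limma adjusted p = 0.043) and mt-Cytb (0.76 ± 0.19, adjusted p = 0.048) were called. Both are near the threshold. Neither call held in a fit of the 4 libraries of both lines alone (adjusted p = 0.05 and 0.072, the first just at the threshold), under quantile normalization (adjusted p = 0.053 and 0.066), or with scaling outside the mitochondrial genes (adjusted p = 0.066 and 0.065). Nor did either hold without the mean-variance trend (0.051 and 0.052), without the filter (0.055 and 0.056), or on leaving out any 1 library of the 2 lines (adjusted p from 0.052 to 0.324). Among the tRNA genes, mt-Tn (-0.88 ± 0.19, adjusted p = 0.033), mt-Tc (-0.83 ± 0.18, adjusted p = 0.032) and mt-Ta (-0.81 ± 0.20, adjusted p = 0.042) were lower in H3.3K27M than in Cbfa2t2_KO, and no rRNA was called. These 3 calls were lost on leaving out either Cbfa2t2_KO library (adjusted p from 0.084 to 0.218) or the first H3.3K27M library (adjusted p from 0.075 to 0.103), and those of mt-Ta and mt-Tc also on leaving out the second (0.064 and 0.054). The mt-Ta call was lost without the trend (0.051) and without the filter (0.052) as well.

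Pieces of mitochondrial DNA have been copied into the nuclear genome, and 7 of the 13 mRNA genes have an annotated copy with at least 99% identity, all 7 of them on chromosome 1. Gm29216 matches only 31.3% of the length of mt-Co1 and Gm28439 only 63.6% of mt-Nd4, while the others match at least 99% of their genes. The matched parts differ by at most 1 base, so most reads from such a pair cannot be told apart. The FPKM of most copies followed the mitochondrial genes. Gm28661, a copy of mt-Co2 (chr1:24614885-24615565, reverse strand, 100% identity over 681 bases), was listed at between 0.997 and 1.00 times the FPKM of mt-Co2 in every library. Gm28437, the copy of mt-Co3, was listed at between 1.00 and 1.01 times that gene, and Gm10925, the copy of mt-Atp6, at between 3.82 and 4.03 times. Gm28438, the copy of mt-Nd3, was at 1.68 and 1.71 times the FPKM of mt-Nd3 in H3.3WT, 1.17 in both Cbfa2t2_KO libraries, and 1.08 and 1.13 in H3.3K27M. That ratio was highest in H3.3WT. Gm28438 was called lower in Cbfa2t2_KO (log2 change -0.77, limma adjusted p = 0.025), where mt-Nd3 was not (-0.24, adjusted p = 0.386). The values of mt-Co1, mt-Co2, mt-Atp6, mt-Co3, mt-Nd3, mt-Nd4l and mt-Nd4 are therefore uncertain as to level. When each copy was added to its gene, an alternative chosen after seeing the data, the counts of mRNAs called were unchanged at 9 higher in H3.3K27M and 0 in Cbfa2t2_KO. For the partial copies such a sum of FPKM is not a pooled level.

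Other classes of RNA that are short or lack a poly(A) tail were looked at in the same fits, since finished tRNAs are short and lack one. Among small nuclear RNAs, the RNA parts of the spliceosome, 5 of 34 listed genes were tested, of which 4 fell in Cbfa2t2_KO and 5 in H3.3K27M, against 21.5% and 17.8% of all tested genes. Rnu1b6, a gene for the U1 RNA, was at 2.54 and 2.79 FPKM in H3.3WT, 0.371 and 0.320 in Cbfa2t2_KO, and 0.366 and 0.15 in H3.3K27M (log2 changes -1.45, limma adjusted p = 0.00098, and -1.55, adjusted p = 0.0016). Members of this family are near-identical and share reads. Among genes annotated as miscellaneous RNA, 4 of 5 tested fell and 1 rose in Cbfa2t2_KO, and 3 of 6 fell and 1 rose in H3.3K27M. The one that rose was Gm27517 in both lines, at 0.217 and 0.0746 FPKM in H3.3WT, 19.8 and 19.1 in Cbfa2t2_KO, and 24.6 and 11.5 in H3.3K27M (4.16, adjusted p = 9.8e-05, and 3.97, adjusted p = 0.00078). Rn7sk, the RNA of this class that holds the elongation factor P-TEFb inactive, was at 10.0 and 8.98 FPKM in H3.3WT, 3.14 and 2.60 in Cbfa2t2_KO, and 2.04 and 4.67 in H3.3K27M (log2 changes -1.44, adjusted p = 0.0013, and -1.34, adjusted p = 0.012). For Rnu1b6 and Rn7sk the H3.3WT pair stood above the other 4 libraries. The filter takes a mean over the compared libraries, so Rnu1b6 passed it through H3.3WT alone, and Gm27517 through the other lines. For genes this low in a line the filter favours the direction called, so the counts of these classes are not independent of it. Of 46 small nucleolar RNAs tested, 5 rose and 2 fell in Cbfa2t2_KO, and of 55 tested 9 rose and 2 fell in H3.3K27M, where 13.1% and 8.42% of all tested genes rose. Genes annotated as miRNA, which are read as precursors, had 8 of 35 higher and 8 lower in Cbfa2t2_KO, and 11 of 37 higher and 4 lower in H3.3K27M. Replication-dependent histone mRNAs, which end in a stem-loop in place of a tail, had 12 of 47 higher and 9 lower in Cbfa2t2_KO, and 0 of 42 higher and 16 lower in H3.3K27M. Whether a difference in poly(A) selection between the libraries had a part in the tRNA differences was not tested.

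Nuclear genes that act on mitochondrial DNA and RNA are set here beside the shares over all tested genes, of which 21.5% fell and 13.1% rose in Cbfa2t2_KO, and 17.8% fell and 8.42% rose in H3.3K27M (medians -0.11 and -0.12). Of 18 tested genes for the upkeep and transcription of mitochondrial DNA, 6 fell and 1 rose in Cbfa2t2_KO, and of 19 tested 4 fell and 1 rose in H3.3K27M, with medians of -0.36 and -0.26. The H3.3K27M count is near the share over all genes. Tfam, which packs the DNA and starts transcription, was at 19.5 and 26.2 FPKM in H3.3WT, 13.3 and 10.3 in Cbfa2t2_KO, and 15.1 and 19.9 in H3.3K27M. It fell in Cbfa2t2_KO (log2 change -0.89 ± 0.19 (SE), limma adjusted p = 0.011) and not in H3.3K27M (-0.36, adjusted p = 0.225). Twnk, the replicative helicase, fell in both (-0.88 and -1.11, adjusted p = 0.0025 and 0.0031), as did Mterf4 (-1.06 and -1.0, adjusted p = 0.0031 and 0.0085) and the elongation factor Tefm (-0.68 and -1.01, adjusted p = 0.011 and 0.0048). Top1mt, the mitochondrial topoisomerase, rose in both (0.77 and 0.87, adjusted p = 0.019 and 0.015). The RNA polymerase Polrmt, named here for its role after its values were seen, was not called in either (0.20 and -0.23).

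Of 22 tested genes for RNA processing and decay, 8 fell and 1 rose in Cbfa2t2_KO, and 8 fell and 3 rose in H3.3K27M, against falls in 21.5% and 17.8% of all tested genes. Among the RNase P subunits, Trmt10c fell and Hsd17b10 rose in both lines, and Prorp, another subunit, is not reported here. Trmt10c was at 8.77 and 11.2 FPKM in H3.3WT, 3.42 and 2.23 in Cbfa2t2_KO, and 4.32 and 5.05 in H3.3K27M (log2 changes -1.53 and -0.94, limma adjusted p = 0.002 and 0.012). Hsd17b10 was at 31.9 and 27.7 FPKM in H3.3WT, 61.0 and 60.2 in Cbfa2t2_KO, and 49.5 and 58.8 in H3.3K27M (1.00 and 0.84, adjusted p = 0.0019 and 0.011). Neither gene's lines overlapped with H3.3WT. Mtpap, the polymerase that adds the poly(A) tails, was at 16.6 and 17.8 FPKM in H3.3WT, 8.23 and 6.79 in Cbfa2t2_KO, and 8.91 and 7.82 in H3.3K27M (-1.10 and -0.96, adjusted p = 0.0024 and 0.0066). Pde12, which removes them, fell as well (-1.65 and -1.49, adjusted p = 0.0009 and 0.0019). Lrpprc, which stabilizes the mRNAs, rose in H3.3K27M (0.54, adjusted p = 0.041), as did Grsf1, an RNA granule protein (0.99, adjusted p = 0.0077), and neither passed in Cbfa2t2_KO (0.23 and 0.50, adjusted p = 0.329 and 0.06). Elac2, named for its role after its values were seen, fell in H3.3K27M (-0.61, adjusted p = 0.031) and was not called in Cbfa2t2_KO (-0.05).

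Of 20 tested genes for the maturation of mitochondrial tRNAs, 11 fell and 0 rose in Cbfa2t2_KO, with a median of -0.53, and 6 fell and 0 rose in H3.3K27M, with a median of -0.50. Over all tested genes 21.5% and 17.8% fell. Several of these enzymes also act on cytosolic tRNAs. Trmu, which adds sulfur to the wobble base of some tRNAs, was at 4.35 and 4.91 FPKM in H3.3WT, 0.866 and 0.664 in Cbfa2t2_KO, and 1.47 and 1.31 in H3.3K27M (log2 changes -1.67 and -1.24, limma adjusted p = 0.0009 and 0.0035). Gtpbp3, which modifies the same base, fell in both (-1.29 and -1.24, adjusted p = 0.0013 and 0.0022). Trmt61b, a methyltransferase of tRNAs and of the large rRNA, fell in both (-1.31 and -1.17, adjusted p = 0.0014 and 0.0038). Trmt5, a methyltransferase that acts next to the anticodon, fell in Cbfa2t2_KO (-1.36, adjusted p = 0.003) and did not pass in H3.3K27M (-0.57, adjusted p = 0.076).

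Of 20 tested genes for rRNA modification and ribosome assembly, 10 fell and 1 rose in Cbfa2t2_KO, and 12 fell and 0 rose in H3.3K27M, with medians of -0.60 and -0.75, again against falls in 21.5% and 17.8% of all tested genes. Mterf4 and Trmt61b stand in this list as well as in an earlier one. Mrm3, which methylates the large rRNA, was at 60.9 and 68.3 FPKM in H3.3WT, 15.2 and 16.5 in Cbfa2t2_KO, and 13.3 and 17.4 in H3.3K27M (log2 changes -1.96 and -2.01, limma adjusted p = 0.0003 and 0.001). Rpusd4, a pseudouridine synthase of the same RNA, fell by 1.79 and 1.43 (adjusted p = 0.00043 and 0.0015), and Ddx28, a helicase of large-subunit assembly, by 1.59 and 1.58 (adjusted p = 0.00064 and 0.0014). Mettl17, a small-subunit assembly factor, rose in Cbfa2t2_KO (0.55, adjusted p = 0.049) and was not called in H3.3K27M (0.18, adjusted p = 0.519).

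The nuclear genome encodes the partners of the 13 mRNAs in the respiratory complexes. Of 78 tested nuclear genes for these subunits, 17 rose and 6 fell in Cbfa2t2_KO (median 0.16), where 13.1% of all tested genes rose. In H3.3K27M 7 rose and 1 fell (median 0.08), so the rises were near the 8.42% over all genes, while 9 of the 13 mitochondrial mRNAs rose. Ndufs3, a core subunit of complex I, was at 5.20 and 10.1 FPKM in H3.3WT, 19.6 and 17.4 in Cbfa2t2_KO, and 20.7 and 12.8 in H3.3K27M (log2 changes 1.23 and 1.06, limma adjusted p = 0.01 and 0.037). Uqcrc2, of complex III, was at 32.8 and 32.7 FPKM in H3.3WT, 61.3 and 59.8 in Cbfa2t2_KO, and 62.7 and 59.4 in H3.3K27M (0.87 and 0.88, adjusted p = 0.0025 and 0.0063). Complex II, which has no mitochondrially encoded subunit, had Sdhb higher (0.98, adjusted p = 0.0037) and Sdhd lower (-0.64, adjusted p = 0.0097) in Cbfa2t2_KO. In H3.3K27M the fall was Ndufs8, another core subunit of complex I (-0.57, adjusted p = 0.044).

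**Figure D4:**
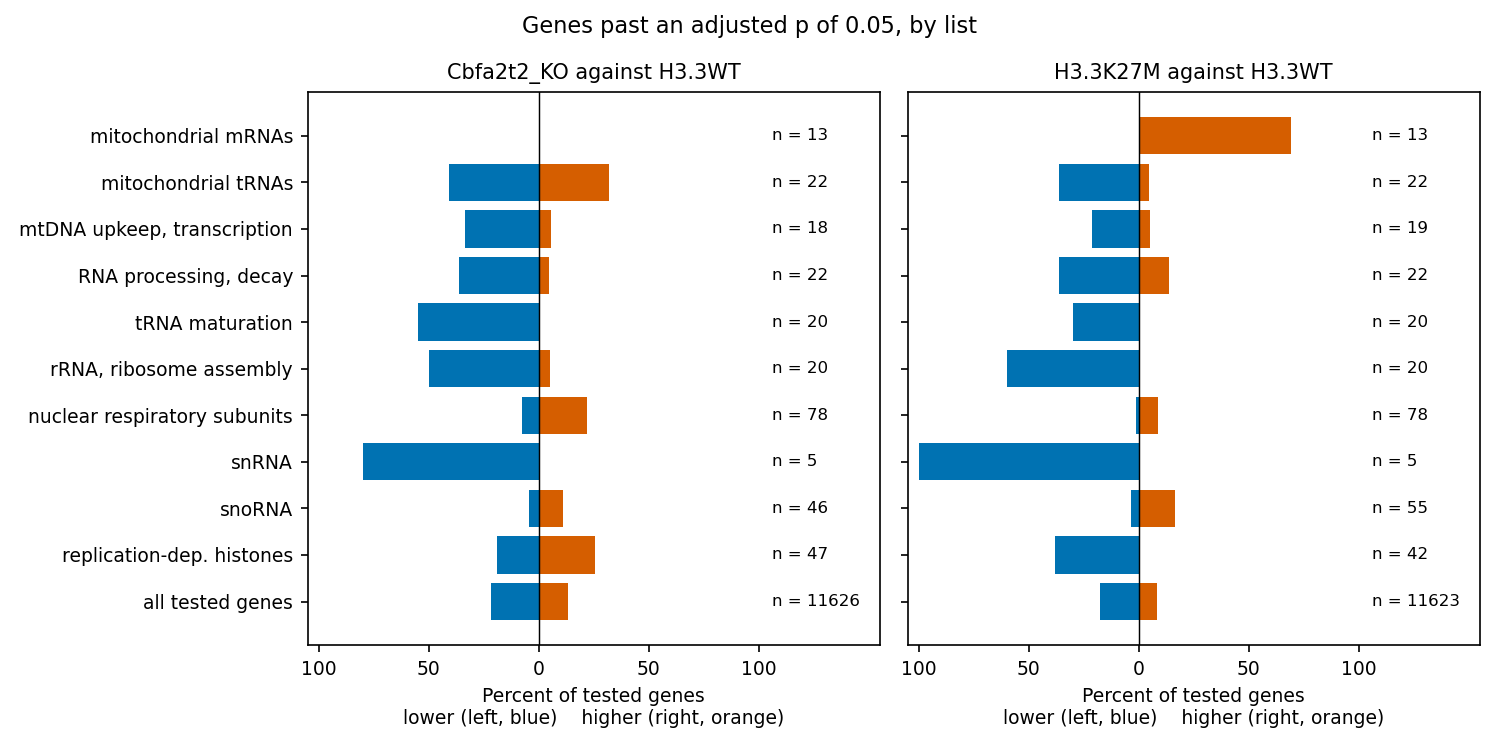
Percent of tested genes in each list that were lower (blue, left) or higher (orange, right) than in H3.3WT at an adjusted p under 0.05, in Cbfa2t2_KO on the left and H3.3K27M on the right, with the number tested at the end of each row. Mitochondrial mRNAs have 0 of 13 called in Cbfa2t2_KO and 9 of 13 higher in H3.3K27M, and the bottom bars give the shares over all tested genes.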

How the data were processed

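Poly(A) RNA-seq of 3 cell lines with 2 libraries each was analysed from 2 gene tables. The authors deposited FPKM values, made per the submitters' processing notes with Trim Galore, HISAT2, StringTie and DESeq on GRCm38; the versions and the annotation release are not given in the sources used here. The table with Cbfa2t2_KO holds 14431 genes and that with H3.3K27M 14318; each repeats the H3.3WT libraries, whose values were identical for all 14082 shared genes. The H3.3K27M columns carry the letter M and a number but no sample name, so they match the 2 samples only as a group.

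From these, log2(FPKM + 1) was fitted with limma 3.58.1 in R 4.3.3 (eBayes with trend) for genes averaging 1 FPKM or more over the compared libraries, with Benjamini-Hochberg adjustment over all tested genes and a threshold of 0.05. Cbfa2t2_KO and H3.3K27M were each compared with H3.3WT over 4 libraries, and with each other over 6. The fit was run on simulated data with independent noise in each gene. Such data hold no spread shared by a whole class, so they do not check the calls of the mRNAs. Positions and sequences come from GENCODE M21 on GRCm38; nuclear copies were found with blastn 2.17.0 (identity of at least 90%, word size 16) and added to their genes where identity was at least 99% over at least 80% of the copy. The anticodon was taken as the known triplet of each tRNA at the place with the best-paired flanking stem. All mitochondrial genes are named; from each other list, up to 3 genes that rose and 3 that fell with the largest change and groups without overlap were eligible. The members and lists were chosen with earlier results of these data known. Alternatives were another pseudocount, filter, scaling, set of libraries and variance model, and leaving out each library. FPKM carry no read counts, so the precision of a value within a library is unknown.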

Additional observations from a re-analysis of the deposited data

How the results depend on the processing

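No call of a mitochondrial gene changed direction under the alternatives run (pseudocount 0.1, no filter or at least 5 FPKM, median-of-ratios, quantile or outside-mitochondria scaling, other sets of libraries, eBayes without trend or robust, copies added, each library left out). The other genes were not checked for this. No paired analysis was possible because the sample labels carry no replicate numbers, and nothing says that the numbers in the column names mark a shared culture, batch or day. With a library left out, the other library of that line is assumed to vary like the rest.

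Against H3.3WT, leaving out 1 library gave from 1915 to 3038 calls in Cbfa2t2_KO (4028 with all), with 3 to 7 tRNAs higher, 7 to 10 lower and 0 to 1 rRNA lower. In H3.3K27M it gave from 1007 to 2790 calls (3049 with all), with 0 to 8 mRNAs higher, 0 to 4 tRNAs higher, 6 to 8 lower and 0 to 1 rRNA lower. Between H3.3K27M and Cbfa2t2_KO it gave from 29 to 786 calls (905 with all), with 0 to 1 mRNAs higher, 0 to 1 tRNAs higher and 0 to 4 tRNAs lower. A mean of at least 5 FPKM left fewer tRNAs to test, and 4 were lower in Cbfa2t2_KO and 3 in H3.3K27M. The tRNAs higher in H3.3K27M numbered 2 with all 6 libraries, 2 at 5 FPKM, 3 with median-of-ratios scaling, 4 with quantile normalization and 3 with robust eBayes, against 1. The rRNA called lower in H3.3K27M was lost with median-of-ratios scaling (0). Between the 2 lines, 554 genes were called from their 4 libraries alone and 492 with scaling outside the mitochondrial genes. There, mRNAs called higher numbered 0 without trend, 0 without the filter, 0 with the 4 libraries, 1 at pseudocount 0.1, 0 with quantile normalization and 0 with scaling outside the mitochondrial genes. The log2 change of the tRNA class, -1.34 in Cbfa2t2_KO and -0.79 in H3.3K27M by the median, was 0.32 in Cbfa2t2_KO, of the opposite sign, and -0.25 in H3.3K27M by the sum, and in H3.3K27M -0.64 with median-of-ratios scaling and -0.88 with scaling outside the mitochondrial genes. The causes of these differences were not tested, apart from the smaller number of genes or libraries where stated.

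The falls of mt-Tf, mt-Tv, mt-Tm, mt-Tw, mt-Ts1, mt-Td and mt-Tr and the rises of mt-Tn, mt-Tc and mt-Ty in Cbfa2t2_KO passed in every alternative that tested them, as did the falls of mt-Tf, mt-Tv, mt-Tq, mt-Tm, mt-Tw, mt-Ts1 and mt-Tr in H3.3K27M. With 2 libraries a line and no read counts, a missing call does not show that a gene did not differ.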
